A study of Mus musculus with 4 samples.

Results

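The genes described here carry glucose from its entry into the cell to lactate or to mitochondrial pyruvate, together with the control of the hypoxia-inducible factor HIF-1. They were chosen as the rows of the expression table whose Ensembl identifier maps to 1 of 33 listed mouse symbols, and all 33 were found among the 17300 genes of the table. Splenic dendritic cells of mice were isolated by flow sorting, and their RNA was sequenced in 4 libraries, 2 labelled KO and 2 labelled WT. The KO samples are titled EKO and the series title concerns Siglec-E, an inhibitory receptor for sialic acid on myeloid cells. The labels give no age, sex, strain, allele or treatment, and leave unsaid whether replicates are different mice, so the p-values reflect the scatter among these libraries alone, which for the WT pair could be technical. The KO libraries differed from each other in Y-linked RNA (values below), which repeats of 1 RNA sample would share. Every column name starts with the word Allo, whose meaning no label states. As the numbers on the KO columns differ from those in the KO titles, the names KO A and KO B are used for them.

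Glycolysis splits glucose into pyruvate in the cytosol. Pyruvate is then either reduced to lactate and exported with a proton by monocarboxylate transporters, or imported into mitochondria and oxidized by the pyruvate dehydrogenase complex. Dendritic cells are known to raise glycolysis when they are activated, and the transcription factor HIF-1 is a known inducer of glycolytic genes. Prolyl hydroxylases of the Egln family mark its alpha subunit for destruction by the ubiquitin ligase that contains Vhl.

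In the KO libraries, RNA was called higher for some genes at the entrance and at the exit of the pathway. These were Slc2a1, the glucose transporter GLUT1, the hexokinases Hk1 and Hk3, and the lactate transporters Slc16a1 (MCT1) and Slc16a3 (MCT4). Their log2 differences ran from 0.39 to 1.01. For the enzymes in between, from Gpi1 to Ldha, no difference passed the test, but some came close in size to that of Hk3. Pfkm differed by 0.39 and Pfkfb4 by 0.37, while Slc2a3 and Hk2 at the entrance did not pass either. The steps were not tested against each other. Of the 33 genes, 32 passed the filter on low values and were tested: 5 rose, 0 fell and 27 did not pass (limma, Benjamini-Hochberg adjusted p under 0.05). Of all 11864 tested genes 6.93% passed, 4.69% higher and 2.23% lower in KO. Of the calls over all genes 67.8% were higher, and 56.5% with quantile normalization, where 3 of the 32 genes rose and 0 fell. An unadjusted p under 0.05 was reached by 14 of the 32 and by 24.7% of all tested genes, and those of the 14 that were lower in KO were Vhl, Pfkfb3 and Dlat. The median difference was 0.14 over the 32 genes and -0.0017 over all tested genes. A positive difference was found for 25 of the 32, against 49.6% of all tested genes. Both KO libraries lay above both WT libraries for 17 of the 32 and below them for 4, where the shares over all tested genes were 28.1% and 28.2%. The 27 genes that did not pass had 95% intervals lying between -0.74 and 0.75 on the log2 scale.

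The values are variance-stabilized log2 values, in which low levels are compressed, so normalized counts obtained by undoing the transform are given beside them. The back-transformed counts summed to between 29002408 and 30952251 per library. Siglece, the gene of Siglec-E, was at 101 and 111 normalized counts in the KO libraries and at 859 and 666 in the WT libraries, in the direction of the labels. Markers of dendritic cells and of other cell types moved with the groups. Of 16 dendritic cell genes 10 fell and 0 rose, and their share of all counts was 1.71% to 1.79% in KO and 2.41% to 2.45% in WT. Red cell genes rose in 9 of 17, with 0.207% to 0.297% of counts in KO and 0.0360% to 0.106% in WT. Monocyte genes rose in 6 of 12, with 0.610% to 0.623% in KO and 0.345% to 0.417% in WT. Neutrophil genes rose in 4 of 15, with 0.825% to 0.854% in KO and 0.299% to 0.778% in WT. Macrophage genes rose in 5 of 12 and NK cell genes in 9 of 9 tested, with counts in KO of 0.0825% to 0.112% and 0.0425% to 0.0519%, against 0.0475% to 0.0548% and 0.0198% to 0.0208% in WT. T cell genes rose in 1 of 5 tested and B cell genes in 1 of 8, and none of the 2 platelet genes tested rose. None of the genes of these lists was at 0 in any library. In sorted bulk cells, fewer cells of a type and less RNA per cell cannot be told apart.

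**Figure D1:**
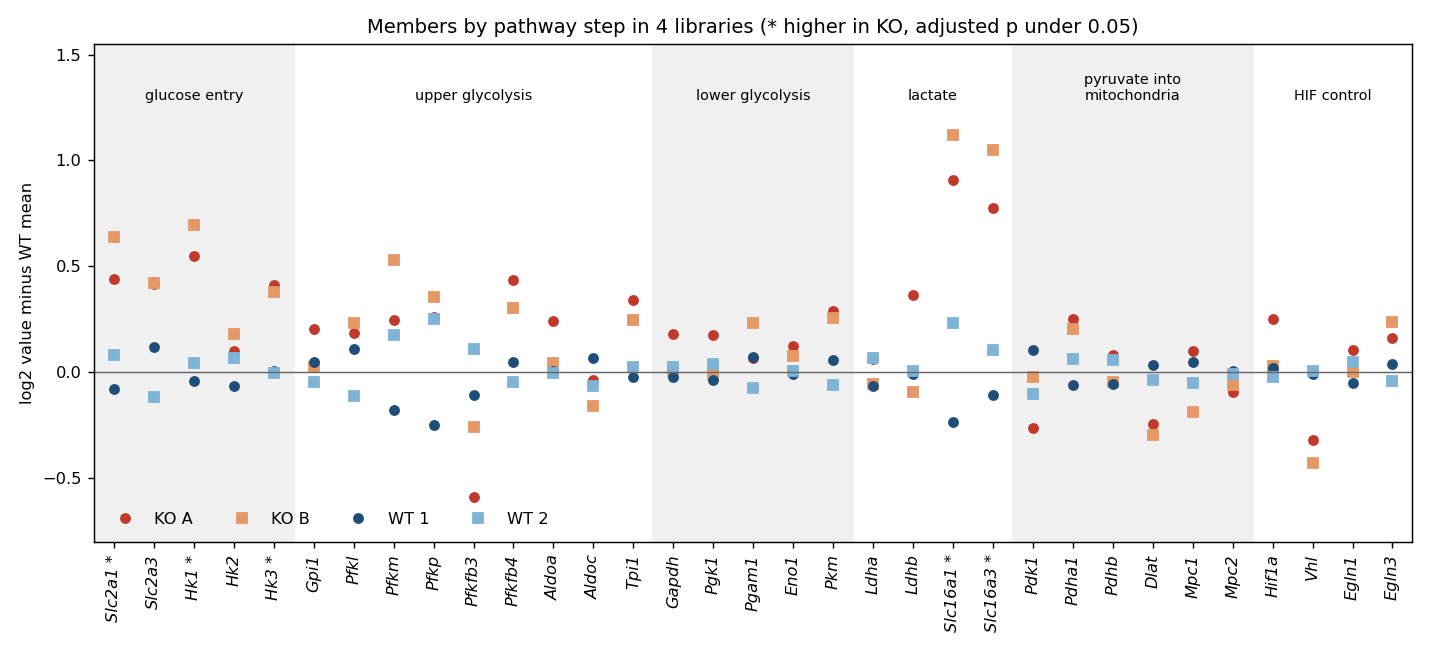
Log2 value of each of the 33 genes in each library minus the mean of the 2 WT libraries, ordered by pathway step, with circles and squares for the 2 libraries of each group and an asterisk for genes called higher in KO. Both KO libraries lie above both WT libraries for 17 of the 32 tested genes and below for 4, with the widest gaps at Slc16a1 and Slc16a3, and the points of lower glycolysis lie within 0.29 of the WT mean.

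The HIF core motif is marked below in the promoters of 4 genes picked with their values known. These are Slc2a1 at the entrance, both lactate transporters at the exit, and Ldha, the lactate dehydrogenase subunit between them, whose groups overlapped. Hk1 and Hk3, which also rose, are not printed. The sequences are the 250 bases before the RefSeq start in build GRCm38.p6, an older build than the GRCm39 named in the submitters' processing notes, 5′ to 3′ on the plus strand, on which all 4 genes lie. Slc2a1 is at chr4:119108495-119108744, Ldha (the first of its listed starts) at chr7:46845554-46845803, Slc16a1 at chr3:104638414-104638663 and Slc16a3 at chr11:120948817-120949066. Capitals mark ACGTG or GCGTG on either strand (read as CACGT or CACGC on the other), and the palindrome CACGTG holds ACGTG on both strands.
Slc2a1: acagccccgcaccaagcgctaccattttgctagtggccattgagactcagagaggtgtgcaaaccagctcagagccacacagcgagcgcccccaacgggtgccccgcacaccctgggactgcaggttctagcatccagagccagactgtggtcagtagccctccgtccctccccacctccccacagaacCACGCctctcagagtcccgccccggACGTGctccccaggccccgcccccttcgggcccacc
Ldha: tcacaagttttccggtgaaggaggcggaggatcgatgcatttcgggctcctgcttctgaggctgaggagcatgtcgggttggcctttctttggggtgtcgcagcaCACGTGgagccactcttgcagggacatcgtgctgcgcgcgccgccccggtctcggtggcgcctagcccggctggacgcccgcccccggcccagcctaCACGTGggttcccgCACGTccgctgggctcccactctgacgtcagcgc
Slc16a1: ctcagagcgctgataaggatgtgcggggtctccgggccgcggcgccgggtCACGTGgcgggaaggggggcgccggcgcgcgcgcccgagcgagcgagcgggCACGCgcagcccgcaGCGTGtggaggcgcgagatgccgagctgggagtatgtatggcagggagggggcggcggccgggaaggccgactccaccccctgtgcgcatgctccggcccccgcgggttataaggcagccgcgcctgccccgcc
Slc16a3: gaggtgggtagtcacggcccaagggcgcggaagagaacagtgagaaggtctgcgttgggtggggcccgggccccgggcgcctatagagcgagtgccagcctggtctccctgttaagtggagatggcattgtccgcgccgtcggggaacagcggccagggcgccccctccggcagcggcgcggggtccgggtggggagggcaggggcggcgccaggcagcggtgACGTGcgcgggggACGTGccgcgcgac
The Slc16a3 window held ACGTG at 27 and 14 bases before the start. In Slc16a1 the motif stood at 3 places, the farthest being a CACGTG at 200 bases before the start. Slc2a1 had 2 places, at 61 and 36 bases. Ldha also had 3 places, with CACGTG at 145 and 48 bases and CACGT at 34 bases. Of the genes that rose and are not printed, Hk1 held no ACGTG, and GCGTG only before the second of its listed starts. Hk3 held ACGTG at 1 place. RefSeq promoters matched 32 of the 33 genes (Slc2a3 had no entry), and 28 of these 32 held ACGTG or GCGTG in at least 1 window, compared with 41.5% of all 27025 genes with a promoter. Those without were Dlat, Gpi1, Tpi1 and Vhl. The stricter ACGTG was found in 16 of the 32 and in 18.5% of all genes. These shares were not matched for expression, base composition or the number of windows per gene, so they do not show an enrichment. The motif was thus held both by genes that rose and by genes that did not pass, and a match is a description of the letters only.

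Glucose enters leukocytes mainly through GLUT1 and GLUT3. Slc2a1 (ENSMUSG00000028645) was at 842 and 1031 normalized counts in KO A and KO B and at 467 and 568 in WT 1 and WT 2. The groups did not overlap. The log2 level was 10.46 ± 0.14 over the KO libraries and 9.92 ± 0.11 over the WT libraries (SD, n = 2 each), which is a rise by 0.54 (SE 0.112, limma adjusted p = 0.0422), or 1.81-fold in mean counts. The call of Slc2a1 ended with quantile normalization (adjusted p = 0.0540), without WT 1 (difference 0.46, adjusted p = 0.105), and on leaving out KO A or KO B (adjusted p = 0.0849 or 0.162). Slc2a3, the high-affinity transporter GLUT3, was at 3553 and 3563 counts in KO and at 2793 and 2303 in WT. Its difference of 0.42 (SE 0.101, adjusted p = 0.0590) did not pass, although the groups did not overlap. Without WT 1 it passed (difference 0.54, adjusted p = 0.0370), and without WT 2 it was 0.30 (adjusted p = 0.212). Without KO A or KO B its adjusted p was 0.170 or 0.186.

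Hexokinases trap glucose in the cell as glucose 6-phosphate. Hk1 (ENSMUSG00000037012), the widely expressed form bound to mitochondria, was at 3338 and 3741 counts in KO A and KO B and at 2052 and 2201 in WT 1 and WT 2. Both KO libraries were above both WT libraries. Its log2 level averaged 11.98 ± 0.10 over the KO libraries and 11.36 ± 0.059 over the WT libraries (SD, n = 2 each). The rise was 0.62 (SE 0.0905, adjusted p = 0.0213), or 1.66-fold in counts. Without KO A the difference of Hk1 was 0.70 and without KO B 0.55, and in neither of these fits was it called. Hk3 (ENSMUSG00000025877), a form typical of myeloid cells, was at 3729 and 3631 counts in KO and at 2694 and 2671 in WT. The libraries of each group were within a few percent of each other, and Hk3 rose by 0.39 (SE 0.0778, adjusted p = 0.0389), or 1.37-fold in counts. The call of Hk3 ended with quantile normalization (adjusted p = 0.0609) and without any 1 of the 4 libraries (adjusted p = 0.105 to 0.126), while its difference stayed between 0.38 and 0.41. Hk2, the form induced by growth signals and HIF-1, was at 3151 and 3362 counts in KO and at 2757 and 3069 in WT. Its difference was 0.14 (95% interval -0.073 to 0.35, adjusted p = 0.386).

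Set per kilobase of the longest coding transcript in GENCODE M21, Hk3 held the largest share of hexokinase counts in every library, 43.2% to 46.1% in KO and 43.7% to 46.1% in WT. The share of Hk1 was 31.1% and 33.5% in KO and 26.4% and 27.1% in WT, while that of Hk2 was 22.8% and 23.3% in KO and 27.5% and 29.3% in WT. The order of Hk1 and Hk2 was therefore turned between the groups, with Hk1 second in KO and Hk2 second in WT. Among the 2 glucose transporters Slc2a3 made up 74.0% to 77.6% in KO and 77.0% to 83.1% in WT, and the ranges met. These shares rest on 1 transcript length per gene and were not tested.

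**Figure D2:**
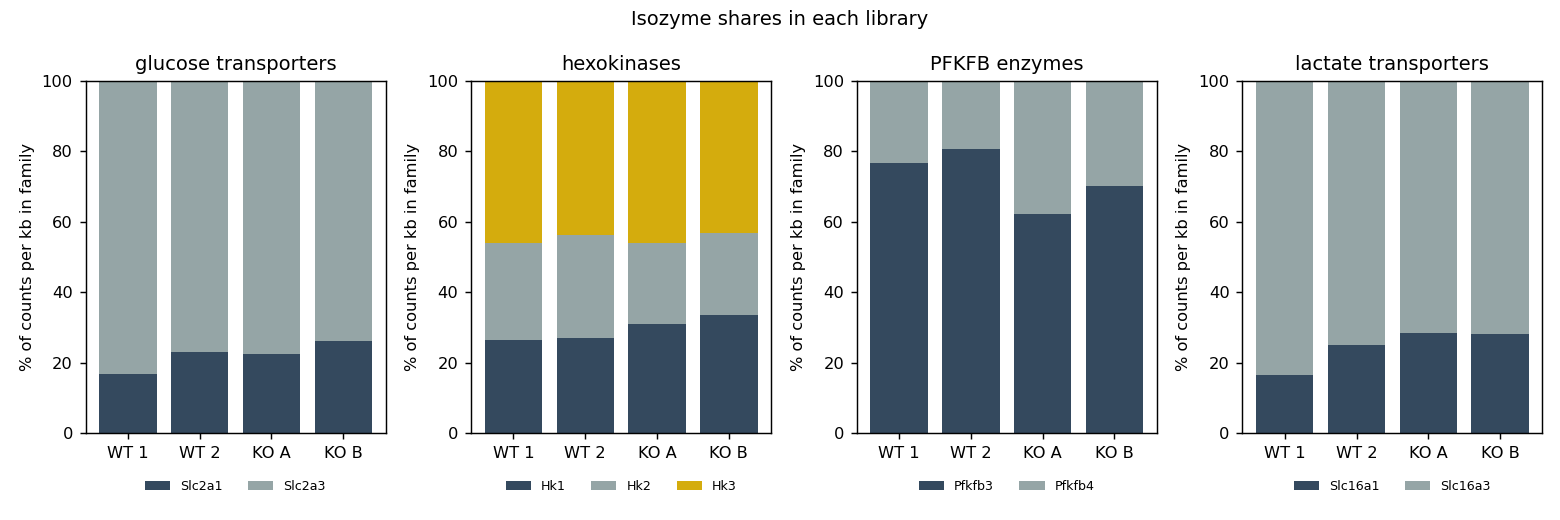
Share of each isozyme in the counts per kilobase of its family, one bar per library, for glucose transporters, hexokinases, PFKFB enzymes and lactate transporters. Hk1 takes 31.1% and 33.5% of hexokinase counts in the KO libraries against 26.4% and 27.1% in WT, and Pfkfb4 takes 37.8% and 29.8% of PFKFB counts in KO against 23.3% and 19.3% in WT.

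In upper glycolysis, 0 of 9 genes passed limma's test, with a median difference of 0.21. Pfkm, Pfkfb3, Pfkfb4 and Tpi1 had an unadjusted p under 0.05. The shares over all tested genes were 6.93% and 24.7%. A count of 0 in so short a list, here or below, is therefore no result about the step. Gpi1, which isomerizes glucose 6-phosphate, differed by 0.11 (adjusted p = 0.503), and its KO and WT libraries overlapped. The phosphofructokinases, the committed step, had positive differences of 0.21 for the liver-type Pfkl (adjusted p = 0.269), 0.39 for the muscle-type Pfkm (adjusted p = 0.176) and 0.31 for the platelet-type Pfkp (adjusted p = 0.295). Pfkp was at 5170 and 5550 counts in KO and at 3477 and 5128 in WT, so that WT 1 alone stood low. Without WT 2 the difference of Pfkp was 0.56 (adjusted p = 0.0259) and without WT 1 it was 0.057 (adjusted p = 0.887). The difference of Pfkm was 0.21 without WT 1 and 0.57 without WT 2 (adjusted p = 0.548 and 0.0536). Per kilobase, Pfkp made up 68.3% to 69.5% of phosphofructokinase counts in KO and 64.6% to 73.9% in WT.

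The bifunctional PFKFB enzymes set the level of fructose 2,6-bisphosphate, the strongest activator of phosphofructokinase, and their 2 genes pointed in opposite directions. Pfkfb3, the form with the highest kinase relative to phosphatase activity, was at 5472 and 7019 counts in KO A and KO B and at 7840 and 9183 in WT 1 and WT 2. Both KO libraries were below both WT libraries, with a difference of -0.42 (SE 0.133, adjusted p = 0.113) that did not pass. Without KO A it was -0.26 (adjusted p = 0.314), and without KO B it was -0.59 (adjusted p = 0.117). Pfkfb4 was at 2412 and 2163 counts in KO and at 1735 and 1593 in WT. The KO libraries were the higher ones here, but the difference of 0.37 (SE 0.0916, adjusted p = 0.0628) did not pass either. The log2 ratio of Pfkfb4 to Pfkfb3 counts was -1.18 and -1.70 in KO and -2.18 and -2.53 in WT, higher in both KO libraries. This ratio was not tested.

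Further down, Aldoa, the main aldolase of these cells, was at 6783 and 5850 counts in KO and at 5680 and 5642 in WT, which gave 0.14 (adjusted p = 0.402). Aldoc, the brain-type form, made up 1.4% to 2.1% of aldolase counts per kilobase and differed by -0.098 (adjusted p = 0.574). Tpi1, the triose phosphate isomerase, was at 1410 and 1293 counts in KO and at 999 and 1045 in WT. Its groups did not overlap, but the difference of 0.29 (SE 0.0882, adjusted p = 0.104) did not pass.

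In lower glycolysis, 0 of 5 genes passed limma's test, against 6.93% of all tested genes, with a median difference of 0.10. Pkm alone had an unadjusted p under 0.05, against 24.7% of all tested genes. Gapdh, the dehydrogenase that gives NADH, was at 10045 and 8840 counts in KO A and KO B and at 8667 and 8961 in WT 1 and WT 2, and the groups overlapped (difference 0.092, 95% interval -0.13 to 0.31). Pgk1, which makes the first ATP of the pathway, differed by 0.083 (adjusted p = 0.648), Pgam1, a mutase, by 0.15 (adjusted p = 0.408) and Eno1, the enolase, by 0.099 (adjusted p = 0.477). Pkm, the pyruvate kinase of these cells, was at 14968 and 14646 counts in KO and at 12700 and 11656 in WT. Its libraries did not overlap, and the difference of 0.27 (SE 0.0830, 95% interval 0.073 to 0.47, adjusted p = 0.106) did not pass. Aldoa, Tpi1, Gapdh, Pgk1, Pgam1, Eno1, Pkm and Ldha have processed pseudogene copies in the mouse genome that can share reads, so their levels are uncertain to that extent.

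Pgk1 and Pdha1, a subunit of pyruvate dehydrogenase, are X-linked. Y-linked RNA was scarce in KO A, where 4 Y-linked genes took 0.00329% of counts against 0.0315% to 0.0340% elsewhere. Without KO A the difference of Pgk1 was -0.0099 (adjusted p = 0.966) and that of Pdha1 was 0.20 (adjusted p = 0.348). The 5 genes that rose kept positive differences without KO A, the lowest being 0.38 for Hk3. Compared with the fit of all libraries, the difference was larger for Slc2a1, Hk1, Slc16a1 and Slc16a3 and slightly smaller for Hk3.

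The exit of the pathway held the largest differences among these genes. Slc16a3 (ENSMUSG00000025161), the lactate exporter of highly glycolytic cells, was at 2037 and 2558 counts in KO A and KO B and at 900 and 1109 in WT 1 and WT 2. The lowest KO library was well above the highest WT library. The log2 level was 11.44 ± 0.19 over the KO libraries and 10.53 ± 0.15 over the WT libraries (SD, n = 2 each), a rise by 0.91 (SE 0.126, 95% interval 0.61 to 1.21, adjusted p = 0.0199), or 2.29-fold in counts. Slc16a1 (ENSMUSG00000032902), which carries lactate and pyruvate in either direction, was at 829 and 1028 counts in KO and at 182 and 375 in WT. The WT libraries lay far apart, with WT 1 the lowest, but both were below both KO libraries. Its log2 level was 10.45 ± 0.15 over the KO libraries and 9.44 ± 0.33 over the WT libraries (SD, n = 2 each), a rise by 1.01 (SE 0.166, adjusted p = 0.0260), or 3.34-fold in counts. Without WT 1 it was 0.78 (adjusted p = 0.0147) and without WT 2 it was 1.25 (adjusted p = 0.000755). Per kilobase, Slc16a3 stayed the larger of the 2, with 71.5% and 71.8% in KO and 83.5% and 75.1% in WT. Bsg, the chaperone that brings both transporters to the membrane (singled out with its values known), had a difference of 0.38 that did not pass (adjusted p = 0.131).

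Between entrance and exit, Ldha, the subunit that favours lactate formation, was at 6045 and 5518 counts in KO and at 5478 and 6063 in WT. The 2 groups were interleaved and the difference was 0.0029 (SE 0.0906, 95% interval -0.21 to 0.22, adjusted p = 0.991), with the sign turned to -0.042 by quantile normalization. Ldhb, which favours pyruvate, was at 412 counts in KO A while the others ran from 208 to 246, and its difference of 0.14 did not pass (adjusted p = 0.638). Ldha made up at least 91.3% of lactate dehydrogenase counts per kilobase in each of the 4 libraries. The log2 ratio of Slc16a3 to Ldha counts was -1.57 and -1.11 in KO and -2.61 and -2.45 in WT. That of Slc16a1 to Ldha was -2.87 and -2.42 in KO and -4.91 and -4.02 in WT. Within a library the exporters thus stood higher relative to Ldha in both KO libraries, by 1.19 and 1.82 on average. These ratios follow from the values above and were not tested separately.

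**Figure D3:**
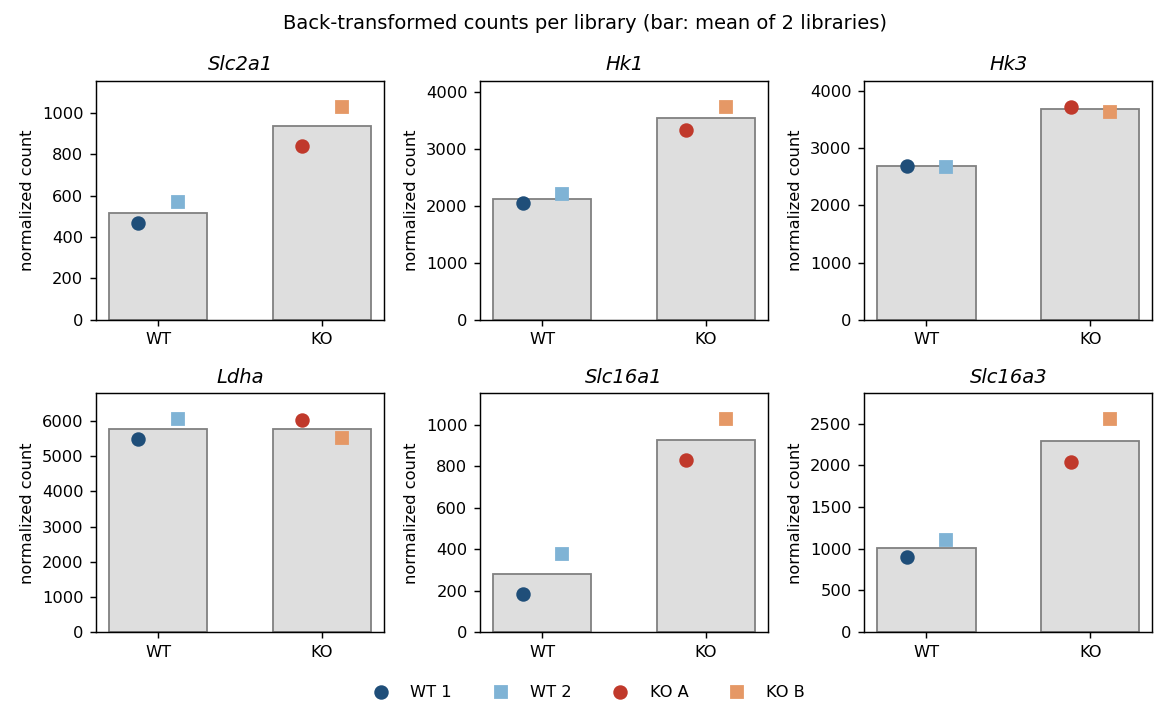
Back-transformed normalized counts of Slc2a1, Hk1, Hk3, Ldha, Slc16a1 and Slc16a3, with 1 point per library and a bar for the mean of the 2 libraries of a group. Slc16a1 runs from 182 in WT 1 to 1028 in KO B, while Ldha lies between 5478 and 6063 in all 4 libraries.

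The red cell list and the immediate early gene list ordered the libraries as KO B, KO A, WT 2 and WT 1 by their summed counts. The same order was found for 7 of the 33 genes, which were Slc2a1, Hk1, Hk2, Pfkm, Pfkp, Slc16a1 and Slc16a3, and for 9.68% of all tested genes. Hk3, Pfkfb4, Aldoa, Pkm and Hif1a were ordered KO A, KO B, WT 1 and WT 2, as were the monocyte and neutrophil lists. Slc2a3, Pfkl and Egln3 were ordered KO B, KO A, WT 1 and WT 2, as were the macrophage and NK cell lists. Some places were near ties, as for Hif1a at 3301 counts in KO B and 3277 in WT 1. How many of all tested genes had either of these later orders was not counted, so these matches are no result about the genes. The share of counts in immediate early genes, which are switched on by stimulation and by tissue dissociation, was 0.397% and 0.471% in KO and 0.0522% and 0.156% in WT. The part of red cells, of other myeloid cells and of cell handling in the differences of these genes was not tested.

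Steps that take pyruvate into mitochondria showed no call by limma among 6 genes, against 6.93% of all tested genes. The median difference was -0.060. Pdha1 and Dlat had an unadjusted p under 0.05, against 24.7% of all tested genes. Mpc1 and Mpc2, the partners that form the mitochondrial pyruvate carrier, differed by -0.044 (adjusted p = 0.860) and -0.076 (adjusted p = 0.636). Among subunits of pyruvate dehydrogenase, Pdha1 was at 3090 and 2974 counts in KO and at 2396 and 2655 in WT (difference 0.23, adjusted p = 0.170). Dlat, the acetyltransferase core, was at 646 and 608 counts in KO and at 870 and 810 in WT (difference -0.27, adjusted p = 0.126). The groups overlapped for neither gene, and the 2 subunits pointed in opposite directions. Pdhb, the partner of Pdha1, differed by 0.018 (adjusted p = 0.936). Pdk1, the HIF-induced kinase that shuts the complex, was at 691 and 892 counts in KO and at 1010 and 818 in WT, with a difference of -0.14 (95% interval -0.44 to 0.15, adjusted p = 0.529).

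In the control of HIF-1, 0 of 3 tested genes passed limma's test, against 6.93% of all tested genes. Vhl had an unadjusted p under 0.05, against 24.7% of all tested genes. Hif1a, the oxygen-regulated subunit, was at 3934 and 3301 counts in KO A and KO B and at 3277 and 3169 in WT 1 and WT 2. KO A stood above the other 3 libraries, which lay close together, and the difference was 0.14 (SE 0.0993, adjusted p = 0.432). Vhl, which targets the hydroxylated subunit for destruction, was at 774 and 689 counts in KO and at 1066 and 1079 in WT. Both KO libraries were lower, by 1.47-fold in mean counts, with a difference of -0.37 (SE 0.0900, adjusted p = 0.0587) that did not pass. Egln1, the main HIF prolyl hydroxylase, differed by 0.053 (adjusted p = 0.768). Egln3, a hydroxylase that is itself induced by HIF, was under the filter on low values and was not tested with it. It was at 123 and 143 counts in KO and at 92.7 and 75.7 in WT, 1.58-fold higher in KO by mean counts. In the limma fit with no filter its unadjusted p was under 0.05, but it was not called.

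**Figure D4:**
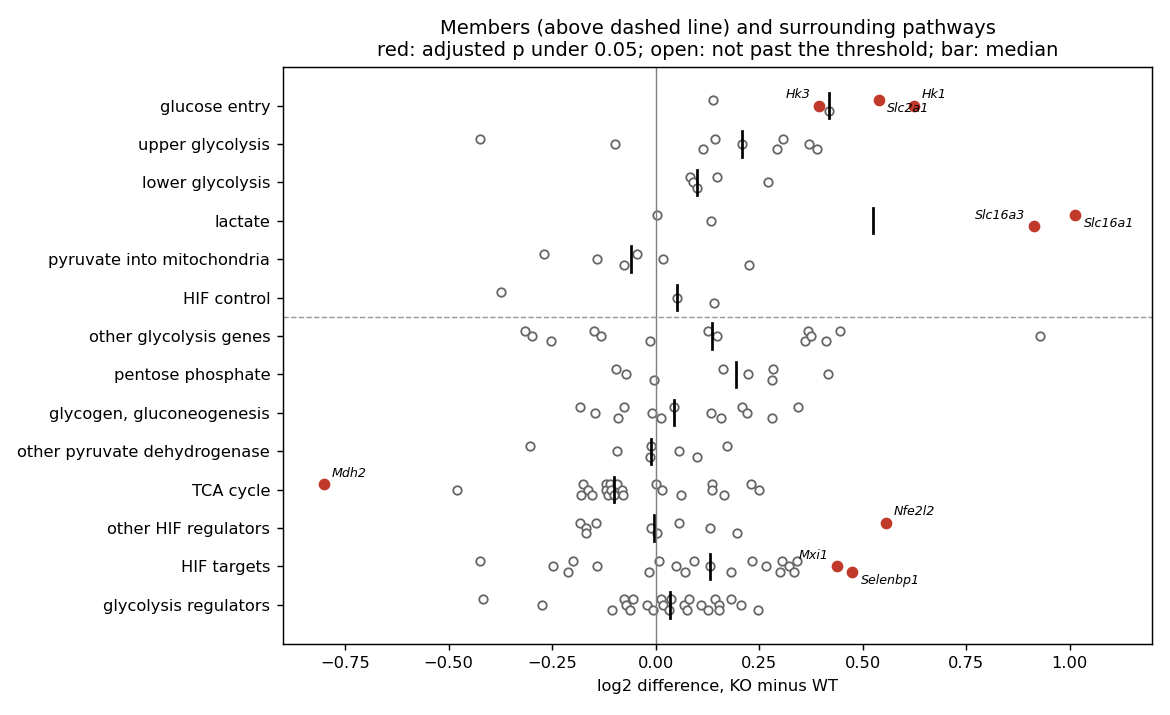
Log2 difference between KO and WT for each tested gene of the 6 pathway steps (above the dashed line) and of 8 surrounding lists, with filled red points past the threshold, open points not past it and a bar at each median. The lactate step has the highest median, 0.52, and the TCA cycle the lowest, -0.10. The lactate median falls in a gap between Ldha and Ldhb (0.0029 and 0.14) and Slc16a3 and Slc16a1 (0.91 and 1.01).

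Few genes of the surrounding pathways passed. Among 21 tested targets of HIF, a list that shares Pfkfb3 and Pdk1 with the genes above, 2 rose and 0 fell, with a median of 0.13. These were Mxi1, an antagonist of MYC, which rose by 0.44 (adjusted p = 0.0465), and Selenbp1, which rose by 0.47 (adjusted p = 0.0389) and is uncertain because of its near-identical copy Selenbp2. Mxi1 was not called with quantile normalization, with log2 of the count plus 1 or without any 1 of the 4 libraries. Selenbp1 was not called without WT 1, KO A or KO B, and lies under the filter at 2 log2 units. Of 10 tested genes in the list of other HIF regulators 1 rose. This was Nfe2l2, the oxidative stress factor NRF2, which is neither a HIF subunit nor a HIF hydroxylase. It was at 4588 and 3988 counts in KO and 2776 and 2732 in WT (difference 0.56, limma adjusted p = 0.0264). Other glycolysis genes (14 tested, median 0.14), pentose phosphate enzymes (8 tested, median 0.19), glycogen and gluconeogenesis genes (13 tested, median 0.046), other pyruvate dehydrogenase genes (7 tested, median -0.010) and regulators such as the mTOR and AMPK genes (24 tested, median 0.035) had 0 calls in either direction. Among the other glycolysis genes, Pklr, the pyruvate kinase of red cells and liver (singled out with its values known), was at 441 and 431 counts in KO and at 28.4 and 183 in WT. Its difference of 0.93 (SE 0.211, adjusted p = 0.0523) did not pass, but it was called with no filter and without either WT library.

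In the TCA cycle 1 of 23 genes fell and 0 rose, with a median of -0.10. The gene was Mdh2, the mitochondrial malate dehydrogenase, at 6447 and 6126 counts in KO and 12103 and 10604 in WT. It fell by 0.80 (SE 0.0926, adjusted p = 0.0147), 1.81-fold in mean counts, and its groups were far apart. Fh1, the fumarase next to it in the cycle (singled out with its values known), had a difference of -0.48 (adjusted p = 0.0672). The 8 lists together held 118 tested genes besides the 33, of which 3 rose and 1 fell by limma, while 27 had an unadjusted p under 0.05. Over all tested genes 4.69% rose, 2.23% fell and 24.7% had an unadjusted p under 0.05.

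All 5 calls were lost when either KO library was left out, as were nearly all calls over the whole table. The scatter within groups then comes from the WT pair alone, so a lost call does not show a smaller difference. Without KO A, 0 of the 32 genes passed, while 10 had an unadjusted p under 0.05, and without KO B 0 passed and 14 had one. Over all genes, 0 and 3 passed in these fits, where 2508 and 2448 had an unadjusted p under 0.05. Without WT 1, 4 genes passed (Slc2a3, Slc16a3, Slc16a1 and Hk1), and without WT 2, 5 passed (Pfkp, Slc16a3, Slc2a1, Slc16a1 and Hk1). The differences of Slc16a1, Slc16a3, Hk1 and Slc2a1 were positive in every fit, with lowest values of 0.78, 0.78, 0.55 and 0.44 when a library was left out.

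**Figure D5:**
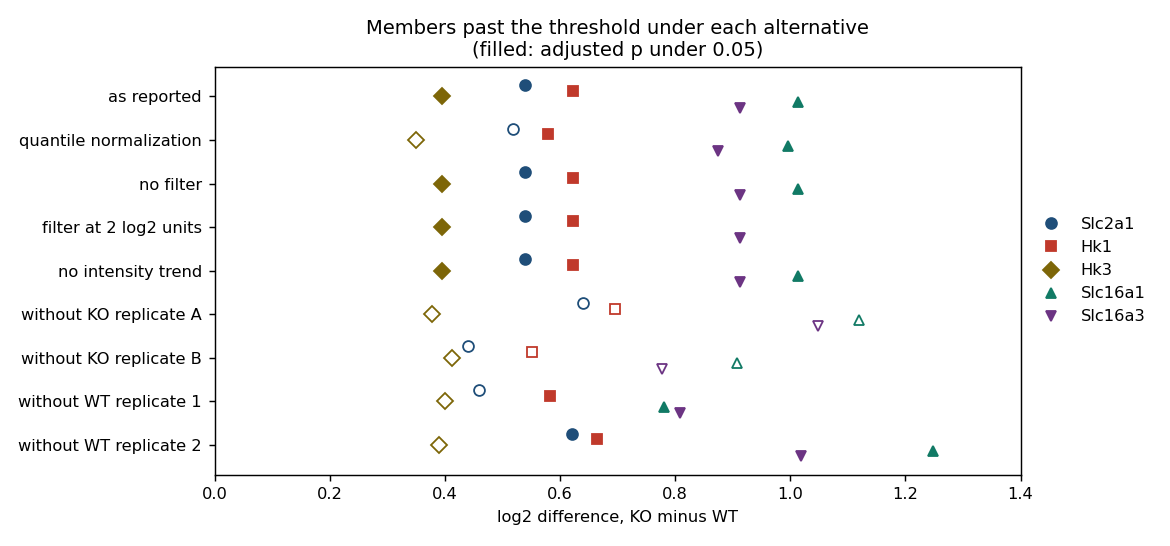
Log2 difference between KO and WT of the 5 genes past the threshold, as reported and under each alternative on the same scale, filled where the adjusted p is under 0.05. All points lie to the right of 0, and all 5 are open when KO A or KO B is left out; Slc16a1 has no point under the filter at 2 log2 units, where it was not tested.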

How the data were processed

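Total RNA libraries of sorted splenic dendritic cells (2 KO, 2 WT) were made with a stranded kit for very small inputs, per the labels' protocols. The authors deposited 1 table of log2 values per Ensembl gene, scaled between libraries. Salmon 1.10.1, DESeq2 and GRCm39 are named in the submitters' processing notes with no role. Nothing read here states the annotation or any filter on genes. The log2 unit was inferred from the deposited values, whose minimum of 8.04 is common to the 4 libraries, as a variance-stabilizing transform gives. Undoing it from that value alone gave normalized counts, which come after scaling and do not give sequencing depth. Symbols came from GENCODE M21 (17289 of 17300 identifiers matched).

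The test took the 11864 genes whose mean exceeded that minimum by 1 log2 unit or more. Two-sided moderated tests of KO minus WT were made with limma 3.58.1 (R 4.3.3) with a variance trend on intensity and 6.48 total degrees of freedom, and p-values were adjusted by Benjamini-Hochberg across these genes. Simulated data for this comparison, with 11864 genes of which 100 were changed at each size, gave back 96% of changes of 1 log2 unit and 19% of changes of 0.5. In the data 822 genes were called. The adjusted p depends on how many genes change, so these shares need not hold for the data. The genes and lists were chosen with earlier results of these data known, so no list test was made. All 33 genes are named, and from each surrounding list at most 4 past the threshold by smallest p. Alternatives were quantile normalization, no filter, a filter at 2 log2 units, log2 of the back-transformed count plus 1, no intensity trend, and leaving out each library.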

Additional observations from a re-analysis of the deposited data

How the results depend on the processing

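No paired analysis was possible because the KO columns carry numbers that no KO sample title has. The count of these genes past the threshold, 5, was 3 with quantile normalization, 5 with no filter, with log2 of the back-transformed count plus 1 and without the intensity trend, and 4 with the filter at 2 log2 units, where Slc16a1 was not tested. Leaving out 1 library gave 0 to 5 of these genes, 0 to 820 of all genes (822 with 4 libraries) and 0 to 6 in the surrounding lists (4 with 4 libraries). For these genes and the lists the 0 came both without KO A and without KO B, and for all genes without KO A (3 without KO B). The 1 KO library left there is assumed to vary like WT. Of 284 refitted differences 257 kept direction and side of the threshold, and the cause of the others was not tested. Signs turned with quantile normalization for Ldha (-0.042) and Pdhb (-0.010), and when a library was left out for Pgk1 (-0.0099 to 0.18), Ldha (-0.064 to 0.070), Ldhb (-0.094 to 0.36), Pdhb (-0.044 to 0.079) and Mpc1 (-0.19 to 0.099). With 2 libraries a group, most simulated differences of 0.5 log2 units were missed. Fewer genes were changed in the simulation than the 822 called in the data, so that share need not hold for the data.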
